A study of Mus musculus with 8 samples.

Results

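Myc encodes a basic helix-loop-helix transcription factor that drives growth and division of blood progenitors, and the gene lies on mouse chromosome 15 beside the non-coding gene Pvt1, with few protein-coding genes downstream. In blood stem and progenitor cells Myc is known to be controlled by a cluster of enhancers that lies very far downstream of the gene and is reached by a long chromatin loop. The histone mark H3K27ac is found at promoters and enhancers in use, and H3K27ac HiChIP counts ligation products between DNA fragments that lay close together in the nucleus and were pulled down with an antibody to the mark. The loops described here have a 5 kb bin that holds the canonical start site of Myc (GENCODE M39, GRCm39, chr15:61857227, plus strand), or have both bins within 2 Mb downstream of it. Of 411922 entries in the 4 lists of significant loops, 187 met this rule, and these were 120 different bin pairs of 214313 in all. They came from progenitor cells with either of 2 forms of the transcription factor CEBPA, p30 or p42, and by list (untreated, then LPS) they were 14 of 80489 and 23 of 94609 loops in p30 and 89 of 158233 and 61 of 78591 in p42.

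The cells were HPC-7, a mouse haematopoietic progenitor line grown with stem cell factor and transduced with a retrovirus that carries either p42, the full-length form of the transcription factor CEBPA, or p30, its N-terminally shortened form. GFP-positive cells were sorted. Both a fusion to ERT2, which moves to the nucleus when a tamoxifen metabolite is added, and a constitutive construct were made for each isoform. The study's methods describe making p42 HPC-7 and p30 HPC-7 cells with the fusion, and list the constitutive constructs separately. Cells with the fusion received the metabolite before an experiment. The labels do not say which construct the HiChIP cells carried, and there were no cells with an empty vector among these libraries. Cells of either isoform stayed untreated (UT) or received lipopolysaccharide (LPS), which is sensed by TLR4, at 100 ng/mL for 2 h. Below, 2 values given for an isoform are UT first and LPS second, and 4 values in a row are p30 first and p42 second, each in that order. The 8 libraries form 4 groups of 2 replicates, and 1 list per group, with both replicates pooled, was deposited. The spread between replicates is therefore unknown, and each difference described is between libraries, not between conditions.

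The lists differed in length and depth, which bears on every count of loops. The contacts in the loop caller's model numbered 17976716 and 14503330 in p30 and 18999991 and 15831583 in p42. The mean coverage (reads per 5 kb bin) of bins with an H3K27ac peak was 2406, 2239, 2911 and 1939 in the same order. A pair of bins is listed only when its q-value is under 0.01, so the contacts of an unlisted pair are unknown, and so is the coverage of a bin that has no listed loop. All 9 progenitor genes checked, among them Kit, Gata2, Runx1 and Spi1, had loops at their start sites. Of 9 marker genes of other cell types, 5 had none in any list: Cd3e and Cd8a (T cells), Pax5 (B cells), Alb (liver) and Neurod1 (neurons). Of all 21757 protein-coding genes, 10526 had a start-site loop in any list, so having none was about as common over all genes. Myod1 (muscle) had at most 2 in a list. The macrophage markers Adgre1 and Csf1r together had 6 and 3 start-site loops in p30 and 13 and 8 in p42, and their part in the differences between p30 and p42 described below was not tested.

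The Myc start-site bin (chr15:61855001-61860000) had no loop to any near partner, upstream or downstream, in any of the 4 lists. All of its loops went to the enhancer cluster, taken here as the bins between 1.6 and 1.8 Mb downstream. Bins are named below by the distance of their start from the start of the Myc bin. The partners were 4 bins, at +1615 kb (chr15:63470001-63475000), +1620 kb (chr15:63475001-63480000), +1665 kb (chr15:63520001-63525000) and +1670 kb (chr15:63525001-63530000). They lie in an intron of the long non-coding RNA gene Gm41335. The Myc bin itself also holds the start sites of Gm62594, a long non-coding RNA gene on the opposite strand, and of Gm37947, an unclassified transcript, so a contact of this bin cannot be given to Myc alone.

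The bases just before the Myc start site are shown because they lie in the 5 kb bin that these long loops reach. The 250 bases (chr15:61856977-61857226, plus strand, GRCm39) contain 60.4% G or C, against a median of 53.2% in the same window of 21770 protein-coding genes.
Myc promoter: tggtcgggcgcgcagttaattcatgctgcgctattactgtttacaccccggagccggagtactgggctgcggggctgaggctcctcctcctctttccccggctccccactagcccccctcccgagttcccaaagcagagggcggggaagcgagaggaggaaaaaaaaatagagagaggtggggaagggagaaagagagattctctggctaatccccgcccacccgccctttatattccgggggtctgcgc
None of the 7 motifs searched on both strands was present in these 250 bases. The motifs, with the share of the 21770 promoters that hold each, were C/EBP (TTGCNNAA, 9.34%), the C/EBP-ATF composite (TGATGCAA, 0.887%), AP-1 (TGANTCA, 6.17%), the GATA family (letters AGATAA, 9.61%), RUNX (TGTGGT, 13.02%), ETS (CAGGAAG, 9.87%) and NF-kB (GGANTTTCC, 1.18%).

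C/EBP letters, which CEBPA can read, were found at both ends of the long loops. The 5 kb Myc bin held 3 matches to the C/EBP letters, all before the 250 bases shown, and none to the composite letters. The +1665 kb bin, the one partner of Myc listed in 3 lists, held 2 matches to the C/EBP letters and 2 to the composite letters, which do not overlap each other. The matches of this bin are shown in capitals with 30 bases on each side, plus strand, in the order of their position.
+1665 kb, composite, chr15:63520166-63520233: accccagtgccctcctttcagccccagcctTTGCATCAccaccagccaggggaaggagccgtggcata
+1665 kb, C/EBP, chr15:63520433-63520500: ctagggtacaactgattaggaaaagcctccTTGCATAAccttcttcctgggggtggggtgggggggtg
+1665 kb, C/EBP, chr15:63523157-63523224: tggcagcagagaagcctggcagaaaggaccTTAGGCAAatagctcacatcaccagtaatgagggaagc
+1665 kb, composite, chr15:63524025-63524092: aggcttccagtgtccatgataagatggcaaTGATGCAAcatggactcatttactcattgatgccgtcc
Next to these stand the composite match of the +1725 kb bin, which also has 2 C/EBP matches not shown, and 3 of the 4 C/EBP matches of the +1720 kb bin, because these 2 bins had the highest coverage ratios between p42 and p30. The +1705 kb bin had the lowest untreated relative ratio of the cluster (1.71) and also held 1 composite match and 2 C/EBP matches. Whether the letters go with the ratios was not tested.
+1725 kb, composite, chr15:63584273-63584340: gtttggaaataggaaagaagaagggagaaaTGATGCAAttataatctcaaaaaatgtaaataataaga
+1720 kb, C/EBP, chr15:63577116-63577183: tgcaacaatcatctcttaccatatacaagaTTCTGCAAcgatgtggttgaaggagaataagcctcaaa
+1720 kb, C/EBP, chr15:63578747-63578814: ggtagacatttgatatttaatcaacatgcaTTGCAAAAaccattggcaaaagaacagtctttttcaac
+1720 kb, C/EBP, chr15:63579668-63579735: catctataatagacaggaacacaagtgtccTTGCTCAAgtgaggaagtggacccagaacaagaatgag

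Over the whole cluster, 27 bins were in a listed loop of any list. The C/EBP letters were in 26 of them (96.3%) and in 85.8% of all 64985 peak bins of the lists, with 2.85 matches per cluster bin and 2.08 per peak bin. The composite letters were in 6 cluster bins (22.2%) and in 11.6% of all peak bins. Matches per bin were 1.22 in the cluster and 1.53 in all peak bins for AP-1, 2.89 and 2.91 for GATA, 3.56 and 4.51 for RUNX, and 2.04 and 2.14 for ETS. The NF-kB letters occurred 1 time in the cluster, in 3.70% of its bins, and in 15.3% of all peak bins. A 5 kb bin is long for such short letters, and a match is a description of the sequence, not a bound site.

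The number of loops from Myc to the cluster was 1 and 0 in p30 and 3 and 3 in p42. Both p42 lists thus held more of these loops than either p30 list. Of 10526 protein-coding genes with a start-site loop in any list, 17.2% gained loops from p30 to p42 in both treatments' lists, as Myc did. Among genes with a start-site loop in a given list, the median was 3 loops in p30 UT, p30 LPS and p42 LPS and 5 in p42 UT, and Myc had no more than this in any list. With adjacent pairs merged the Myc loops numbered 1, 0, 2 and 2, and with lists of equal length 1, 0, 1 and 3, so the untreated difference was not seen at equal length. In the arc plot of all loops the long arcs from Myc are the most visible feature, and the p30 LPS list is the one without them.

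**Figure D1:**
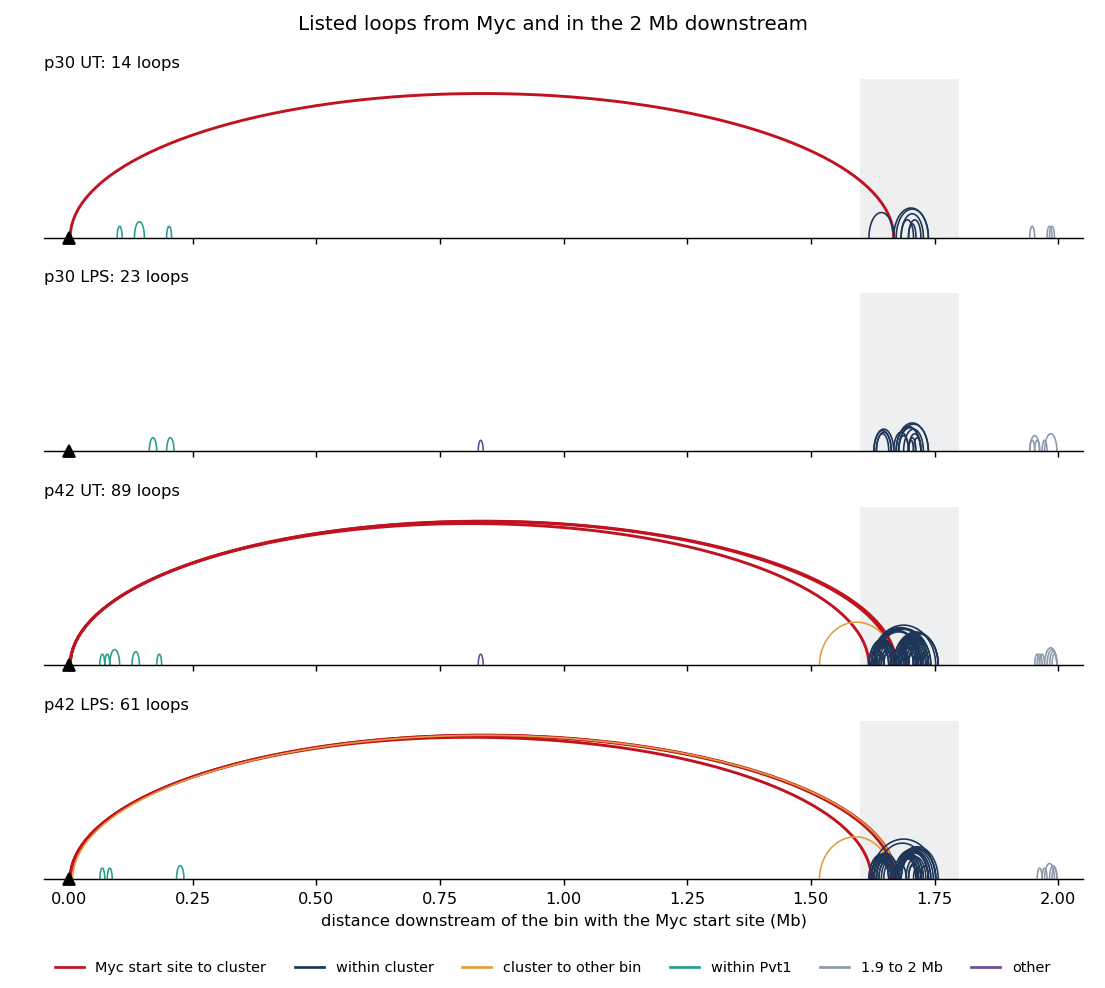
Listed loops from the Myc start-site bin (triangle) and within the 2 Mb downstream, in each of the 4 lists. The horizontal axis is the distance downstream in Mb, each arc joins the 2 bins of 1 loop, its colour gives the class, its height grows with the distance and is no measured value, and the shaded band is the enhancer cluster window. Arcs from Myc number 1, 0, 3 and 3, and loops within the cluster number 7, 15, 72 and 48, from top to bottom.

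The +1665 kb bin was the most regular partner of Myc. It shared 8 contacts with the Myc bin in p30 UT (exact 95% Poisson interval 3.45 to 15.8), 12 in p42 UT (6.20 to 21.0), and after LPS 10 in p42 (4.80 to 18.4), and the pair was unlisted in p30 LPS. These intervals, like all others here, cover counting error only. The caller expected 1.01, 1.03 and 1.02 contacts in these lists, so contacts were 7.88, 11.7 and 9.79 times the expected number, with q-values of 0.0017, 2.0e-07 and 3.4e-05. The 3 intervals overlap widely. Of the 20 contacts of both untreated lists together, 12 came from p42 (95% Wilson interval of the share 38.7% to 78.1%), against 51.4% of the modelled contacts and 50.3% of the expected contacts, and both of these shares lie within the interval.

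The other partners of Myc were listed in p42 only. The +1670 kb bin had 7 contacts with Myc in either p42 list, 6.79 and 6.84 times the expected number. The +1615 kb bin had 9 contacts in p42 UT (8.80 times expected, q = 0.00012), and the neighbouring +1620 kb bin had 7 in p42 LPS (6.82 times expected, q = 0.0094). In p42 LPS, the next bin of the Myc gene body (+5 kb, chr15:61860001-61865000) also had a loop to the +1670 kb bin, with 7 contacts.

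These loops lie at the limit of what the lists can show. At this distance about 1 contact was expected, and a pair needed 7 or 8 contacts to be listed in p30 UT and 7 in the other lists. A pair missing from p30 LPS may therefore have had up to 6 contacts. That number lies within the intervals of the 8 contacts in p30 UT and the 10 in p42 LPS and just under that of the 12 in p42 UT, so the absence of Myc loops from p30 LPS is not a measured loss. Over the 2 loops that p42 UT and p42 LPS shared, there were 19 contacts in UT and 17 in LPS, an LPS share of 47.2% (95% Wilson interval 32.0 to 63.0) against 45.45% of the modelled contacts. At the loops listed in both lists, neither LPS in p42 nor the isoform in untreated cells went with a difference beyond counting error. Summed over all listed Myc loops, p30 UT had 8 contacts in 1 loop (3.45 to 15.8) and p42 UT 28 in 3 loops (18.6 to 40.5). These sums leave out the contacts of unlisted pairs, so they are not the same measure in both lists.

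Loops as long as this were rare in all lists. The lists held 4 and 5 (p30) and 18 and 10 (p42) loops of 1.5 Mb or longer, the longest of them 1885 kb. Of these, 1, 0, 3 and 3 started at the Myc bin. Only 13 protein-coding genes had their start site in such a loop in any list, and Myc was the only one with such loops in at least 3 lists, with 7 entries and 60 contacts in all. The next was the histone gene H2bc12 on chromosome 13, with 6 entries and 48 contacts in p42 UT and p42 LPS. It is named after its values were seen.

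The enhancer cluster had many loops among its own bins in the p42 lists and few in the p30 lists. Loops with both bins inside the cluster numbered 7 and 15 in p30 and 72 and 48 in p42, and 87 different pairs in all. They spanned 10 to 130 kb and held 100, 270, 2418 and 1038 contacts in the same order. Both p42 lists held more than either p30 list, and p42 LPS did so although it is the shortest of the 4 lists. With loops whose bin pairs lie next to each other merged into 1, loops with a bin in the cluster numbered 7, 9, 14 and 13.

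All 7 cluster loops of p30 UT were also listed in p42 UT, where they were 9.72% of the 72. After LPS the lists shared 8 loops, 53.3% of the 15 in p30 and 16.7% of the 48 in p42. In p42, UT and LPS shared 34 loops, 47.2% of those in UT and 70.8% of those in LPS. In p30 they shared 3, of 7 and of 15. Only 2 pairs of the cluster were in all 4 lists, and 31 were in p42 UT alone and 14 in p42 LPS alone. Of all loops, 59069 were in both untreated lists, which held 80489 in p30 and 158233 in p42. After LPS, 46110 were shared, of 94609 in p30 and 78591 in p42. The p42 lists shared 59847 loops and the p30 lists 47004. Of 214313 different loops, 31032 were in all 4 lists.

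The cluster could be set against other stretches of the genome of the same length. Of 2407 windows of 200 kb with at least 20 loops over the 4 lists, 55.6% had at least 2-fold more loops in p42 UT than in p30 UT, the p42 UT list being the longest. The cluster had 10.3 times as many, against a median of 2.07 over the windows, and 98.3% of windows had a lower ratio. After LPS, 5.86% of windows had at least 2-fold more loops in p42. The cluster had 3.20 times as many against a median of 0.806, above 98.4% of windows. At least 2-fold more loops in p42 under both treatments were found in 5.48% of windows, which is 132 windows, and 5 of these had more p42 loops than the 120 of the cluster. The plot of window ratios shows the cluster at the upper right edge of the windows, not outside them.

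**Figure D2:**
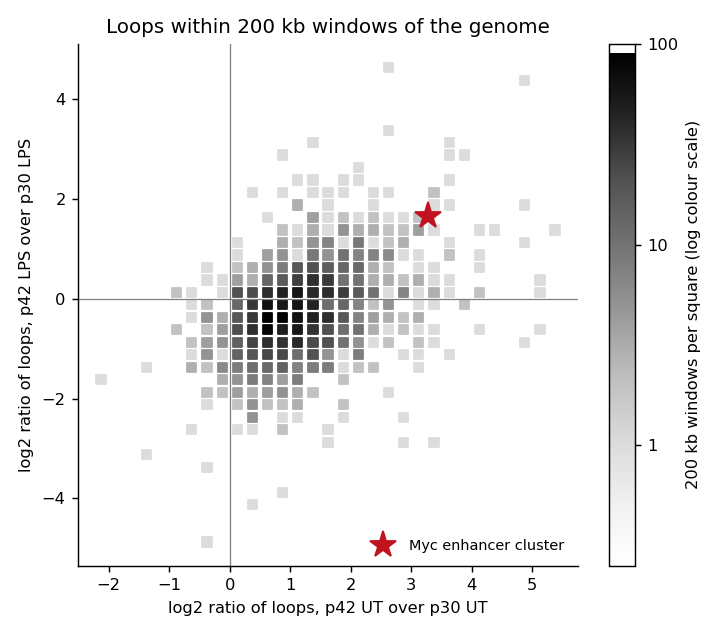
Log2 ratio of the number of loops in p42 over p30 within 200 kb windows, untreated on the horizontal axis and after LPS on the vertical axis, with 0.5 added to each number; grey squares are darker where more of the 2407 windows fall (log colour scale). The star is the Myc enhancer cluster, with 7 and 72 loops untreated and 15 and 48 after LPS.

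With the lists made equal in length the cluster held 7, 10, 40 and 48 loops among its own bins, and 3.74% of windows then had at least 2-fold more p42 loops under both treatments. With contacts thinned to equal coverage of peak bins, the numbers were 1, 10, 50 and 48, and that share was 8.75%. The p42 lists held more cluster loops in either setting, while the order of the p42 lists turned at equal length (40 and 48) and not at equal coverage (50 and 48).

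The loops did not join all cluster bins alike. Grouped after the loops were seen into a near block (9 bins, +1615 to +1660 kb), a middle block (3 bins, +1665 to +1675 kb) and a far block (15 bins, +1680 to +1755 kb), the middle bins, the most frequent Myc partner and the next 2, had loops to both sides. Loops from the middle to the far block numbered 2 and 6 in p30 and 21 and 17 in p42, and those from the near to the middle block 1, 1, 8 and 8. Direct loops from the near to the far block numbered 0, 0, 8 and 2. Within the near block there were 0, 3, 14 and 11 loops, and within the far block 4, 5, 21 and 10. The block counts are not corrected for the number of possible pairs or for distance, and pairs of near and far bins include the longest. In p42 UT the listed share of possible cluster pairs was 32.6% at 10 to 25 kb, 26.9% at 30 to 55 kb and 11.9% at 60 to 130 kb. Of the 4 partners of Myc, 2 lie in the near block, 2 in the middle block and none in the far block.

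The cluster loop with the highest contacts over expected joined the +1665 and +1735 kb bins in p42 UT, with 29 contacts, 10.2 times the expected number. The same pair had 11 contacts in p30 UT (6.02 times) and 12 in p42 LPS (4.89 times) and was unlisted in p30 LPS. The +1735 kb bin holds the start sites of Gm41335 and of 4930449C09Rik, a pair of non-coding genes that are read in opposite directions. This bin had 2 and 2 loops in p30 and 8 and 6 in p42.

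In p42 LPS the highest ratio was 8.85, between the +1675 and +1735 kb bins, with 26 contacts. That pair had 10 contacts in p30 LPS and 21 in p42 UT. The most contacts of any cluster loop were 112, between the +1675 and +1685 kb bins in p42 UT, at 2.60 times the expected number.

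The pair of the +1695 and +1710 kb bins, listed in all 4 lists, had 24 and 24 contacts in p30 and 49 and 42 in p42. The pair of the +1670 and +1735 kb bins, the other one in all 4 lists, had 11, 12, 23 and 20. In both pairs each p42 value was higher than both p30 values, and LPS left the numbers close to those of untreated cells. In contacts over expected, the values lay closer together. The first pair was at 2.56, 2.63, 2.85 and 3.05 and the second at 5.56, 6.04, 7.07 and 7.38.

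The cluster loops listed in both isoforms were also compared together. The 7 loops in p30 UT and p42 UT had 100 and 191 contacts, a p42 share of 65.6% (95% Wilson interval 60.01 to 70.9) against 51.4% of the modelled contacts. Each of the 7 had more contacts per modelled contact in p42. Over all loops in both untreated lists the p42 share was 56.3%, and the 8 loops of the Myc region in both lists all lay above it. The expected contacts, which the caller derives from distance and from the coverage of both bins, gave a p42 share of 64.9%, within that interval. Contacts over expected were 3.81 in p30 UT and 3.94 in p42 UT. After LPS the 8 shared loops had 128 and 216 contacts, a p42 share of 62.8% (57.6 to 67.7) against 52.2% of the modelled and 61.1% of the expected contacts. Over all loops in both LPS lists the p42 share was 49.1%. The shared cluster loops thus held more contacts in p42, and both intervals include the share expected from distance and coverage.

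For LPS, the 34 cluster loops in both p42 lists had 1111 contacts in UT and 826 in LPS, an LPS share of 42.6% (40.5 to 44.9) against 45.45% of the modelled and 44.3% of the expected contacts. Contacts over expected were 3.67 in UT and 3.43 in LPS. The 3 loops in both p30 lists had 52 and 53 contacts, an LPS share of 50.5% (41.1 to 59.9) against 44.7% of the modelled contacts. Of the 34 loops in p42, 14 had more contacts per modelled contact after LPS. The direction depends on the baseline: over all loops in both p42 lists the LPS share was 41.9%, below the 42.6% of the cluster, and 26 of the 40 loops of the Myc region in both lists lay above it.

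**Figure D3:**
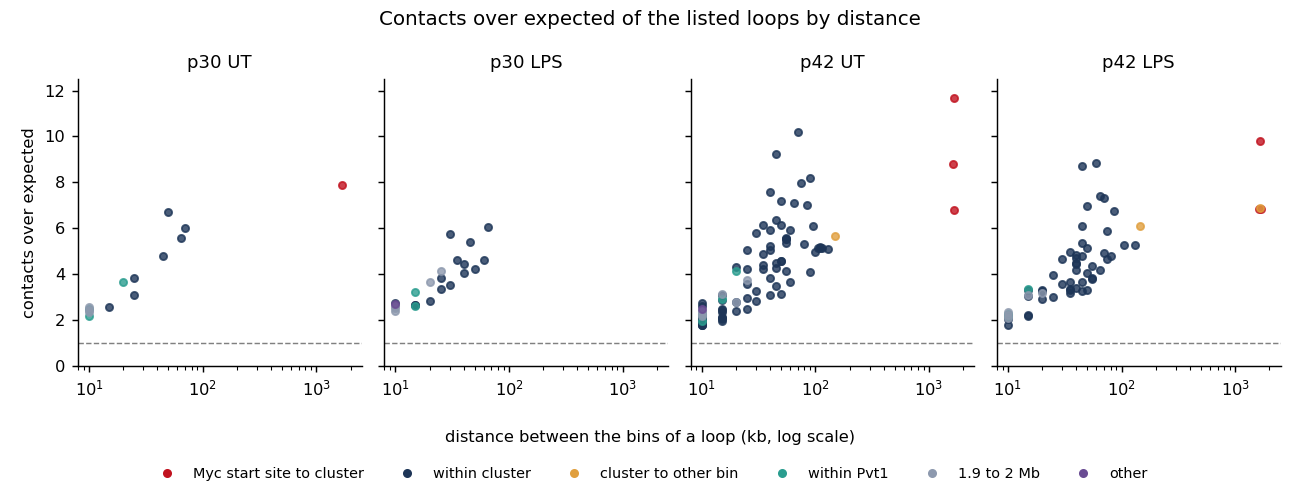
Contacts over expected of each listed loop against the distance between its bins (log scale), for Myc and the 2 Mb downstream in each of the 4 lists; colours give the class and the dashed line is a ratio of 1. Myc loops in red lie at 7.88 in p30 UT, 6.79 to 11.7 in p42 UT and, after LPS, 6.82 to 9.79, and the lowest listed ratio rises with distance because fewer contacts are expected there.

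Single loops did not pass a test of their contacts. A two-sided exact binomial test compared the contacts of 2 lists at each loop, with Benjamini-Hochberg adjustment over all loops tested. Among loops in all 4 lists, 2.36% were called at an adjusted p under 0.05 for p42 against p30 untreated, 1.03% after LPS, 0.503% for LPS against UT in p30 and 0.583% in p42. The 2 loops of the Myc region among them were called in none, and the smallest adjusted p of an exact binomial test was 0.36, for the +1695 to +1710 kb pair after LPS. Among loops in both lists of a comparison the called shares were 1.34%, 0.742%, 0.317% and 0.296% in the same order. Of the 8, 9, 4 and 40 loops of the Myc region that could be tested there, 0 were called, with the smallest adjusted p of the exact binomial test at 0.29. All 8 and 8 of the 9 had a p42 share above the share over all tested loops.

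Coverage, the number of reads in a bin, was higher at the cluster in p42. More of the mark in every cell and the mark in more of the cells cannot be told apart here. Values are also given relative to the mean peak bin of the same list. The +1720 kb bin had 2816 and 2701 reads in p30 and 9980 and 5357 in p42, or 1.17, 1.21, 3.43 and 2.76 times the mean peak bin. It ranked above 53.4% and 57.2% of the listed peak bins in p30 UT and p30 LPS, and above 97.2% in p42 UT. Both p42 values lie above both p30 values, and the 2 p30 values are close to each other.

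The other summits of the cluster showed the same order. At +1625 kb coverage was 3949 in p30 LPS, against 8942 and 6037 in p42, or 1.76, 3.07 and 3.11 times the mean peak bin, and the p30 UT value is unknown. At +1675 kb it was 3800, 8360 and 4833, or 1.697, 2.87 and 2.49 times the mean, and again unknown in p30 UT. The plot of coverage along the cluster shows these 3 summits, with p42 above p30 at every bin where both are known.

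**Figure D4:**
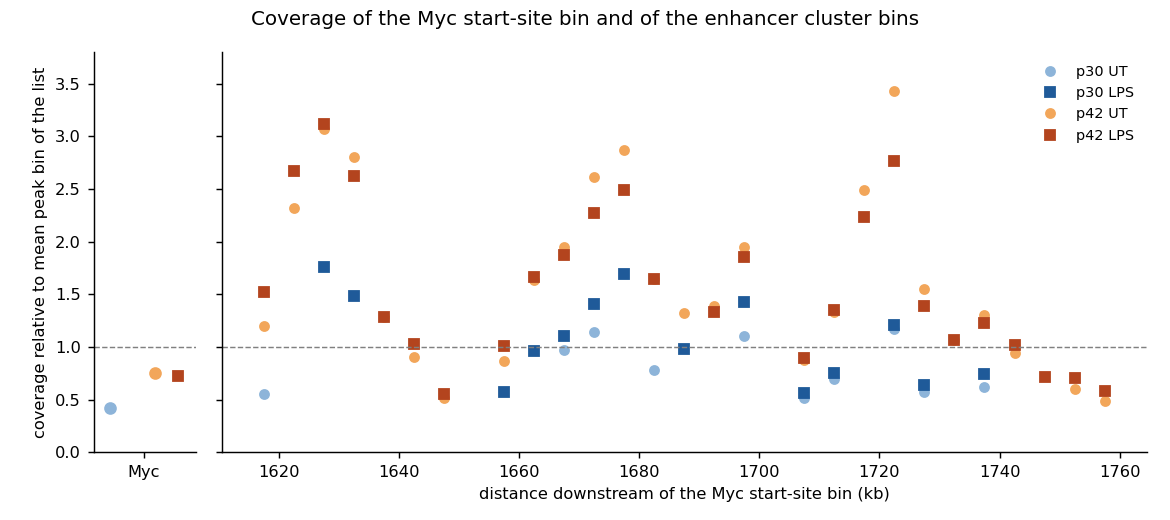
Coverage of the Myc start-site bin (left) and of the enhancer cluster bins by their distance from it in kb (right), each relative to the mean peak bin of its list (dashed line at 1); a point is missing where the bin is in no listed loop of that list. The p42 points reach 3.43 at +1720 kb, and p30 points reach 1.17 there untreated and 1.21 after LPS.

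Over the 8 cluster bins with coverage in all 4 lists, the summed coverage was 16358 and 17560 in p30 and 43682 and 26445 in p42. The median of their relative coverage was 0.832, 0.926, 1.75 and 1.62 in the same order. In the p30 lists the median of these bins was thus just below the mean peak bin, and in the p42 lists well above it.

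Of the 10 cluster bins known in both untreated lists, 7 had at least 2-fold higher relative coverage in p42, which was true of 0.898% of all 41107 peak bins in both lists. Their ratios ran from 1.71 to 2.93 with a median of 2.09, against a median of 0.977 over all peak bins, and all 10 lay above 1.49, the 95th percentile of all peak bins. After LPS, 2 of 13 cluster bins had at least 2-fold higher relative coverage in p42, against 0.648% of all peak bins. Their ratios ran from 1.30 to 2.29 with a median of 1.73, against a median of 1.00 over all peak bins, and 12 of the 13 lay above the 95th percentile of 1.44. The bins share libraries and neighbour each other, so they are not independent, and a bin enters only if it has a loop in both lists.

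LPS went with little change in relative coverage of the cluster. In p30 the 8 bins known in both lists had ratios of LPS over UT from 1.03 to 1.29 (median 1.12), and 0 were at least 2-fold lower, against 0.0216% of all peak bins. In p42 the 25 bins had ratios from 0.806 to 1.26 (median 1.00), and 0 were at least 2-fold lower, against 0.0318% of all peak bins. No bin lay beyond the 5th or 95th percentile of all peak bins in either isoform. The raw coverage of the cluster bins in p42 LPS was 0.667 times that in p42 UT at the median, and the whole list had less coverage after LPS, with a mean peak bin of 1939 against 2911.

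**Figure D5:**
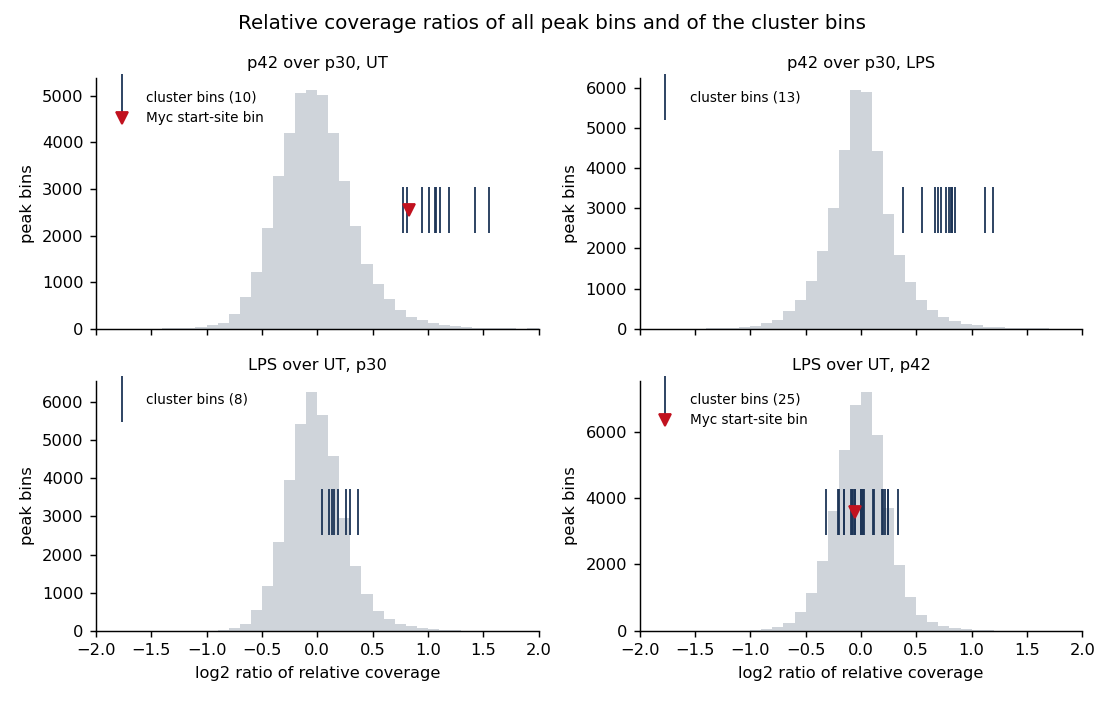
Histograms of the log2 ratio of relative coverage over all peak bins known in both lists of a comparison (grey), with the cluster bins as vertical marks and the Myc start-site bin as a red triangle where it is known in both lists. The cluster bins lie to the right of most peak bins for p42 over p30, with a median ratio of 2.09 untreated and 1.73 after LPS, and among them for LPS over UT in p42, with a median of 1.00.

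The Myc start-site bin itself had much less coverage than the cluster summits. It had 1017 reads in p30 UT, against 2184 and 1400 in p42, or 0.423, 0.750 and 0.722 times the mean peak bin, and it is unknown in p30 LPS. It ranked above 1.74% of the listed peak bins in p30 UT, 27.7% in p42 UT and 14.8% in p42 LPS. Its relative coverage in p42 UT was 1.78 times that in p30 UT and 0.962 times as high in p42 LPS as in p42 UT. All these bins carried an H3K27ac peak in each list where they are known.

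Pvt1, the non-coding gene that follows Myc, had loops inside its body and none to Myc or to the cluster. There were 3 and 2 in p30 and 5 and 3 in p42, of 10 to 20 kb, and 12 different pairs in all. One pair, between the +60 and +70 kb bins, was in more than 1 list, with 55 and 41 contacts in p42, at 2.20 and 2.15 times the expected number. The bin with the start site of Pvt1, at +50 kb, had no loop in any list. The highest coverage within Pvt1 was 3713 reads in p30 LPS at +195 kb, where p30 UT had 2447 and both p42 lists had no loop. Next came 3606 and 2372 in p42 at +70 kb, where neither p30 list had one.

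Between Pvt1 and the cluster almost nothing was listed. A pair between the +825 and +835 kb bins, outside any gene, had 23 contacts in p30 LPS and 25 in p42 UT. A bin at +1515 kb had 1 loop to the cluster in each p42 list, namely +1665 kb untreated and +1660 kb after LPS, with 9 contacts each at 5.67 and 6.10 times the expected number. Of 41 genes with a start site in the 2 Mb, 8 had a start-site loop in any list. Besides Myc, these 8 are non-coding genes, a pseudogene and an unclassified transcript, and no other protein-coding gene of the window had one. The gasdermin genes Gsdmc, Gsdmc2, Gsdmc3 and Gsdmc4, whose products form membrane pores after cleavage, are the other protein-coding genes there.

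The last stretch, from 1.9 to 2 Mb downstream, lies mostly in the body of Cyrib, a gene for an inhibitor of Rac1 signalling that starts beyond the window. It had 3 and 5 loops in p30 and 7 and 5 in p42, of 10 to 25 kb. Relative coverage there in p42 was 1.24 times that in p30 untreated (median of 6 bins, 0.941 to 1.55) and 1.05 times after LPS (median of 4 bins, 1.02 to 1.44), and no bin reached 2-fold. The cluster medians of 2.09 and 1.73 in the same lists are higher, and the difference between the 2 stretches was not tested.

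By distance, the cluster had 3, 6, 28 and 11 loops of 10 to 25 kb. From 30 to 55 kb there were 2, 7, 28 and 26, and from 60 to 130 kb 2, 2, 16 and 11. Loops from p42 UT to p42 LPS thus changed 0.393-fold, 0.929-fold and 0.688-fold in the 3 classes, while all loops of the lists changed 0.533-fold, 0.479-fold and 0.477-fold. Beyond 30 kb the cluster's number after LPS was thus a larger share of that in UT than over the whole p42 lists, and below 30 kb a smaller one.

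The other genes of the MYC network were read as a group for comparison. It comprises Myc and its relatives Mycn and Mycl, their partner Max, the Mxd proteins with Mxi1, Mnt and Mga, which compete for Max, the related Mlx, Mlxip and Mlxipl, and Zbtb17, a partner of MYC in repression. All 14 genes had a start-site loop in at least 1 list, as did 10526 of 21757 protein-coding genes. Untreated, p42 had more loops than p30 at 11 of them and fewer at 1, with a median difference of 2 loops. After LPS, 3 had more and 6 had fewer, with a median difference of 0. Over all 10526 genes with a loop, 8312 had more and 838 fewer in p42 untreated, and 2163 had more and 5370 fewer after LPS, with medians of 2 and -1.

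Myc, Max and Mlxip were the 3 of the 14 network genes with more p42 loops under both treatments. Of all 10526 genes with a loop, 17.2% had more under both, and 3 of 14 is near this share. Max, which binds DNA as a pair with MYC, had 1 and 2 loops in p30 and 6 and 4 in p42. Mlxip, a glucose-responsive partner of Mlx, had 8, 7, 10 and 8. Mxd1, an antagonist of MYC in differentiating cells, had the most loops of the group, with 21, 25, 30 and 20, and Mnt had 7, 18, 20 and 11. None of the others reached as far as Myc, with longest loops of 630 kb for Mnt and 620 kb for Mycn against 1670 kb for Myc.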

How the data were processed

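H3K27ac HiChIP was measured in 8 libraries of HPC-7 cells. Per the study's methods and labels, reads were mapped to mm39 with BWA-MEM 0.7.17, ligation pairs were parsed and deduplicated with pairtools, and loops were called with FitHiChIP in 5 kb bins. How the replicates were pooled is not given in the sources used here. The 4 deposited lists have 26 columns without a header. The deposited contact counts are whole numbers without normalization. The deposited expected counts are estimates that the authors' loop caller derived from distance and coverage, and the deposited contact probability is a fraction of the modelled contacts. The deposited q-value comes from a binomial p-value over all tested pairs. Coverage and the peak flag were used as deposited.

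Members and gene lists were chosen with earlier results of these data known. Loops were found by start site (GENCODE M39, GRCm39, whose 21 chromosome names match the lists). Modelled contacts are the expected count divided by the probability, and the mean peak bin is coverage divided by the caller's bias. Binomial p-values computed from contacts, probability and modelled contacts, adjusted over a number of tests inferred from the deposited q-values, gave q-values within 0.984% of those deposited. Shares have 95% Wilson intervals. Contacts of a loop in 2 lists were tested with the exact binomial distribution, two-sided (null share from all tested loops, Benjamini-Hochberg). Log2 ratios of loop numbers had 0.5 added. Windows of 200 kb needed 20 loops over the 4 lists. Thinning removed contacts at random (seed 7) and computed significance again on the listed pairs. Statistics were tested on simulated data. The C/EBP-ATF motif was added after the other motifs had been searched. Alternatives were q-values under 0.001 and 1e-05, at least 5 contacts, equal list sizes, merged adjacent pairs, wider windows and the null share of the binomial test. Python 3.11.15, pandas 2.3.3, NumPy 2.4.6, SciPy 1.17.1 and Matplotlib 3.10.9 were used.

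The rule for named genes took Myc, genes in the 2 Mb with a start-site loop, the MYC network and genes with a loop of 1.5 Mb or longer in at least 3 lists. Marker genes are named from their lists. Outside the rule, H2bc12, the Gsdmc genes, Pvt1 and Cyrib are named, the last 3 for their position, and all were chosen after their values were seen. A rule for the genes most like Myc could not be applied, since Myc has no loop in p30 LPS. The contact test planned for Myc loops in all 4 lists had no such loop, and loops in both lists of a comparison were used. Of the marker genes and motif matches, 1 each is not reported here.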

Additional observations from a re-analysis of the deposited data

Results flagged for a closer look

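In the lists as deposited, LPS went with opposite changes in the number of loops in p30 and p42. In the 2 Mb downstream of Myc the number rose from 14 to 23 in p30 and fell from 89 to 61 in p42, so the log2 changes of 0.70 and -0.54 differed by 1.24. For loops with a bin in the enhancer cluster the numbers went from 8 to 15 in p30 and from 76 to 53 in p42, and the log2 changes of 0.87 and -0.52 differed by 1.38. The whole lists moved likewise, by 0.23 (p30) and -1.01 (p42), and these differ by 1.24. The p42 fall turned into a rise with lists of equal size (45 to 61 in the 2 Mb, 41 to 53 in the cluster) and at equal coverage of peak bins (57 to 61 and 52 to 53), where the changes were no longer opposite. They stayed opposite with contacts thinned to equal modelled contacts (7 to 23 in p30 and 65 to 49 in p42 in the 2 Mb, 4 to 15 and 56 to 44 in the cluster), at q under 0.001 and 1e-05, and with adjacent pairs merged. The difference was not tested, since each group is 1 list.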

How the results depend on the processing

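No paired analysis was possible because each deposited list pools both replicates of its group, and for the same reason no replicate could be left out. Values are log2 ratios of loop numbers. A minimum of 5 contacts could change nothing, since these loops have at least 7, and the exact binomial test called 0 of them in every setting run. The 4 values that turned are LPS over UT in p42: with lists of equal size 0.43 in the 2 Mb and 0.37 in the cluster, and thinned to equal coverage 0.1 and 0.03. For p42 over p30 untreated, the 2 Mb and the cluster gave 4.25 and 4.57 at q under 0.001, 6.38 and 6.3 at q under 1e-05, 1.65 and 2.29 with equal size, 4.04 and 4.39 at equal coverage, and 0.85 and 0.95 with adjacent pairs merged. After LPS they gave 2.02 and 2.37 at q under 0.001, 2.63 and 2.63 at q under 1e-05, and 0.23 and 0.51 merged. LPS over UT in p30 gave 2.32 and 2.32 at q under 1e-05, 1.65 and 1.78 thinned to equal modelled contacts, and 2.24 and 2.07 at equal coverage, and in p42 -1.42 and -1.35 at q under 1e-05. For Myc start-site loops, q under 0.001 gave 2.32 for p42 over p30 untreated, 1.58 after LPS, 0.0 for LPS over UT in p30 and -0.74 in p42. A q under 1e-05 gave 0.0 for p42 over p30 after LPS, 0.0 in p30 and -1.58 in p42. Equal size gave 0.0 for p42 over p30 untreated and 1.22 for LPS over UT in p42, and thinning to equal modelled contacts 0.0 and 0.74. These Myc values rest on 0 to 3 loops a list. The cause was not tested. Chosen after seeing the data were the use of loops in both lists for the Myc contact shares and the windows under equal size and equal coverage.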
